A study of Mus musculus with 24 samples.

Results

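The genes described here are the ligands and receptors of the main axon guidance systems: ephrins and their Eph receptors, semaphorins with plexins and neuropilins, Slit proteins with Robo receptors, and netrins with Unc5 receptors. They were chosen by symbol and a minimum mean level, with earlier results of these data known. Of 35742 genes in the tables, 68 symbols belonged to these families, and the 67 with a mean of at least 1 normalized read over the 24 libraries were kept. Unc5c, with a mean of 0.43, was left out, and the lowest members kept were Robo2 (1.44), Epha6 (1.44) and Epha3 (1.88). The 67 genes comprise 8 ephrins, 14 Eph receptors, 20 semaphorins, 9 plexins, 2 neuropilins, 3 Slit genes, 4 Robo genes, 4 netrins and 3 Unc5 genes.

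The cells, V6.5 mouse embryonic stem cells, carry a BRD2 degron, a tag through which auxin leads to destruction of the tagged protein. BRD2 is a bromodomain protein of the BET family that binds acetylated chromatin. Cells were harvested as stem cells kept in 2i medium with LIF (mES) or as embryoid bodies, floating aggregates grown without LIF, on day 2, 3 or 4 (EBd2, EBd3 and EBd4). Every culture, controls included, carried the degron and had doxycycline (Dox, 1 µg/ml, 18 h); those called IAA also had the auxin indole-3-acetic acid (500 µM, 24 h), and those called Dox did not. Each of the 8 groups had 3 libraries. The labels do not say what Dox induces, whether the line is 1 clone, when in embryoid body culture IAA was added, or whether the libraries of a group came from separate cultures, so p-values measure the spread between these libraries, which may be technical.

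Recovered reads per library ranged from 7819522 to 15732767, and the members together held 0.105% to 0.202% of them. Every mES and EBd2 library was deeper than every EBd3 and EBd4 library. Ranges were 11102416 to 14317039 in mES, 11005217 to 15732767 in EBd2, 7819522 to 9416260 in EBd3 and 7941180 to 10598075 in EBd4. Depth and stage therefore cannot be told apart across that divide, for levels, steps or counts of calls. The library EBd2 Dox 3 stood apart from the other two of its group (chi-square per degree of freedom 4.09 and 3.44, against 1.27 between those), and the widest pair was EBd4 IAA 1 and 3 (4.90). In EBd4 every IAA library was deeper (9007143 to 10598075 reads) than every Dox library (7941180 to 8120480), so depth and IAA cannot be told apart there. Brd2 RNA, which does not report the protein, stood higher with IAA at each stage without overlap of libraries (8034 to 8441 against 4413 to 4606 in mES, and 3795 to 4463 against 2862 to 3126 in EBd4). Summed naive pluripotency markers were 48055 to 50277 in mES Dox and 3081 to 3610 in EBd2 Dox, while formative epiblast markers were 2542 to 2739 and 37038 to 37719. Fibroblast and feeder markers were low in mES Dox (sum 65.2 to 73.4, with Col3a1, Dcn, Lum and Postn at 0 in all 3 libraries).

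Axon guidance molecules were named for steering growing nerve fibres, but they act wherever cells sort, migrate or form boundaries. Ephrins stay on the cell surface, A types by a lipid anchor and B types by a membrane span, so that Eph receptor tyrosine kinases are activated by contact with a neighbouring cell. Semaphorins of class 3 are secreted and bind neuropilins and plexins, while classes 4 to 7 are mostly membrane-bound. Slit proteins repel cells through Robo receptors, and netrins attract through Dcc or repel through Unc5 receptors.

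The 250 bases before the start are shown for 4 of the members. Efnb2 had the largest rise between mES and EBd2 in the Dox libraries, and Epha1, Epha2 and Sema3e were each lower with IAA in 3 of the 4 stages. Epha1 and Sema3e were called higher in the remaining stage, and some of these calls were lost without 1 library, as given below. Robo1, Sema6a and Slit3 were also lower in 3 stages and are not shown. Sequences are from RefSeq on GRCm38.p6, 5′ to 3′ on the strand of the gene, where 58 of the 67 members had a window. Capitals mark GGGCGG or its complement CCGCCC, and TATAAA or its complement TTTATA.
Efnb2, chr8:8661243-8661492, minus strand: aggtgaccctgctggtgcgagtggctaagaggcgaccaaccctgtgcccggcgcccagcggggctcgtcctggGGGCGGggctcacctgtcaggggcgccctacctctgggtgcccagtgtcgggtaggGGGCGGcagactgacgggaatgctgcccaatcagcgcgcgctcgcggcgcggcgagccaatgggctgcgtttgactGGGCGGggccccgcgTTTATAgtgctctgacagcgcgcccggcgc
Epha1, chr6:42373269-42373518, minus strand: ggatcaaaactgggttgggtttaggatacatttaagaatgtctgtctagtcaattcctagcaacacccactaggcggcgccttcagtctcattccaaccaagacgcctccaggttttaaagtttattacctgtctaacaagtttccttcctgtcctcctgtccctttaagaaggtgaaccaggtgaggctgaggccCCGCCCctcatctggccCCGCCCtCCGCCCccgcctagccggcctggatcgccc
Epha2, chr4:141300971-141301220, plus strand: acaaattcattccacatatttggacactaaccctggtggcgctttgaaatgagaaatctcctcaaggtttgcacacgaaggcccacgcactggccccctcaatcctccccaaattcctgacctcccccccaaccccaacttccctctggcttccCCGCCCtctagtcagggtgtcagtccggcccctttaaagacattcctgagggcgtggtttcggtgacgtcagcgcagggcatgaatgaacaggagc
Sema3e, chr5:14025026-14025275, plus strand: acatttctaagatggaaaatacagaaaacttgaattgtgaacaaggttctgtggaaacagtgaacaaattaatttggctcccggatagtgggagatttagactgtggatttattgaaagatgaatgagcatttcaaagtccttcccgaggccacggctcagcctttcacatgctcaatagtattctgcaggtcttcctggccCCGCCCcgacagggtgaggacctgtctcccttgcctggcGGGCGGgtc

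All 4 windows hold at least 1 GGGCGG on either strand, with 3 copies each in Efnb2 and Epha1, 2 in Sema3e and 1 in Epha2. Among the members, 43 of 58 windows (74.1%) held it, beside 32.9% of 27025 RefSeq windows of the same length taken 1 per gene, and 50.5% of the 14409 windows of protein-coding genes. TATAAA on either strand was found in 2 of the 58 (3.45%), Efnb2 among them, beside 13% of all windows and 8.99% of those of protein-coding genes. The median count of CG dinucleotides was 16 per window among members, 6 in all windows and 13 in protein-coding genes. These are matches of letters and not measured binding sites. The windows were not chosen alike: members had the window nearest the annotated 5′ end of the gene, the other sets the first listed. The other sets were also not filtered on level. For Robo1, Sema3a and Sema4d the RefSeq start lay 354843, 271370 and 37064 bases from the annotated end. No window was matched for Efnb3, Ntn1, Plxna1, Plxna4, Sema3b, Sema3f, Sema6a, Slit1 and Unc5d.

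The first comparison follows the members through differentiation in the Dox libraries alone. Levels are reads divided by the size factor of the library, and changes are log2 fold changes ± SE of log2(level + 1) from limma, called at a Benjamini-Hochberg adjusted p below 0.05 over all genes tested. Between mES and EBd2, 57 of 67 members changed, 36 upward and 21 downward. Of all genes tested 64.1% changed, 35.0% upward and 29.1% downward, and 74.8% of protein-coding genes did. The median change of the members was 0.62, beside 0.07 over all genes. In the next step, EBd3 over EBd2, 41 members changed, 22 upward and 19 downward, beside 46.4% of all genes (22.0% upward, 24.4% downward). Between EBd3 and EBd4, 32 members changed, of which 27 rose and 5 fell, so that 40.3% of the members rose beside 16.1% of all genes. Over that step 33.7% of all genes changed and 17.6% fell, and the medians were 0.36 for members and -0.01 for all genes. Since members passed the filter on low values through their highest stage, these counts include genes that had to differ.

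Efnb2, the B-type ephrin of arterial and boundary cells, was nearly silent in mES and among the highest members in EBd2. Its levels were 16.3, 12.2 and 12.1 in the mES Dox libraries and 1775, 1852 and 1766 in EBd2 (6.97 ± 0.09, adjusted p = 2.3e-26). The groups were far apart, and Efnb2 then fell to 842 to 955 in EBd3 (adjusted p = 8.52e-10). Sema6a, a transmembrane semaphorin that binds plexins of the A class, went from 8.2, 5.2 and 8.4 to 993, 916 and 1054 (6.93 ± 0.11, adjusted p = 1.91e-24) and reached 1536 to 1840 in EBd4. Epha1 rose from 20.8, 27.8 and 36.2 to 653, 657 and 694 (4.55 ± 0.12, adjusted p = 2.64e-20), held 588 to 651 in EBd3 and rose again to 1441 to 1775 in EBd4 (1.40 ± 0.12, adjusted p = 1.99e-09). Sema3e, a secreted semaphorin that binds plexin D1 without a neuropilin, rose from 6.5 to 12.2 in mES to 213 to 253 in EBd2 (4.47 ± 0.15, adjusted p = 1.9e-18). None of these 4 genes had overlapping libraries between mES and EBd2.

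Epha8 also rose from near 0, with 0.9 to 2.8 in mES and 94.7 to 102 in EBd2 (5.06 ± 0.24, adjusted p = 2.15e-15). A further set peaked on day 2. Ephb1 was at 0.9, 0 and 0.9 in mES, at 35.2, 39.7 and 37.3 in EBd2, at 8.5 to 14.9 in EBd3 and at 1.3 to 5.0 in EBd4. Its later steps were -1.54 ± 0.43 (adjusted p = 0.0044) and -1.72 ± 0.43 (adjusted p = 0.00275). Nrp1, a co-receptor of class 3 semaphorins and of VEGF, was listed at 0 in 2 of 3 mES libraries, at 22.2 to 26.5 in EBd2 and at 2.1 to 5.3 in EBd3 (-2.46 ± 0.57, adjusted p = 0.000906). Robo3, a divergent Robo receptor, had 0 to 1.9 in mES, 32.3 to 36.1 in EBd2 and 3.6 to 13.8 in EBd3 (-2.17 ± 0.45, adjusted p = 0.000326). At such levels the log2(level + 1) scale understates the fold.

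Other members were lost on leaving the 2i medium and in part regained. Sema6c fell from 454, 484 and 480 to 69.6, 69.9 and 104 (-2.55 ± 0.12, adjusted p = 3.52e-15) and rose to 148 to 196 in EBd3 (1.10 ± 0.12, adjusted p = 6.56e-08). Slit2 fell from 190, 176 and 165 to 25.2, 38.8 and 36.6 (-2.39 ± 0.17, adjusted p = 4.74e-12). Ntn1, the classical secreted netrin, fell from 439, 465 and 428 to 103, 102 and 109 (-2.07 ± 0.11, adjusted p = 1.26e-14), was at 57.3 to 75.6 in EBd3 and returned to 190, 218 and 215 in EBd4 (1.69 ± 0.11, adjusted p = 1.28e-11). The fall of Ntn1 from EBd2 to EBd3 was called (-0.71 ± 0.11, adjusted p = 4.95e-06). Its receptor gene Unc5a fell from 54.7 to 66.1 in mES to 9.3 to 14.2 in EBd2 (-2.18 ± 0.23, adjusted p = 1.25e-08). Unlike Ntn1 it rose in EBd3, to 16.6 to 23.3 (0.72 ± 0.23, adjusted p = 0.0138), and again in EBd4, to 44.1 to 63.7 (1.40 ± 0.23, adjusted p = 4.3e-05). Unc5b had no fall: it stood at 374 to 397 in mES, 799 to 874 in EBd2, 1428 to 1583 in EBd3 and 1825 to 2046 in EBd4, and each step was called.

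Slit3 and Epha7 climbed in the last step. For Slit3 the step from mES to EBd2 was larger on the log2 scale (2.71 to 2.98 over the fits without 1 library). Slit3 was at 16.3 to 24.2 in mES, 132 to 144 in EBd2 and 179 to 181 in EBd3, and rose to 564, 556 and 502 in EBd4 (1.58 ± 0.12, adjusted p = 5.81e-10). Epha7 rose from 106 to 143 in EBd3 up to 311 to 367 in EBd4 (1.41 ± 0.14, adjusted p = 2.45e-08). Between EBd2 and EBd3, Sema4c had the largest rise of the members, from 90.6, 86.0 and 123 to 399, 326 and 344 (1.84 ± 0.15, adjusted p = 5.76e-10), followed by Ephb6 (1.27 ± 0.19, adjusted p = 6.55e-06), an Eph receptor without kinase activity, and Efna2 (1.17 ± 0.15, adjusted p = 4.22e-07). Epha2 fell over the same step from 1238 to 1333 to 287 to 409 (-1.85 ± 0.11, adjusted p = 2.72e-12) and rose to 582 to 912 in EBd4 (1.07 ± 0.11, adjusted p = 7.26e-08). The falls between EBd3 and EBd4 were in Ephb1, Sema4a (from 70.3 to 74.8 down to 22.4 to 37.8, -1.32 ± 0.16, adjusted p = 7.87e-07), Sema4d (-0.23 ± 0.06, adjusted p = 0.00255), Epha8 (-0.67 ± 0.24, adjusted p = 0.0297) and Sema4b (-0.28 ± 0.08, adjusted p = 0.00784). The call of Sema4b was lost without EBd3 Dox 2 (adjusted p = 0.0953), and that of Epha8 without EBd3 Dox 1, EBd3 Dox 3, EBd4 Dox 2 or EBd4 Dox 3 (adjusted p = 0.0507 to 0.124).

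**Figure D1:**
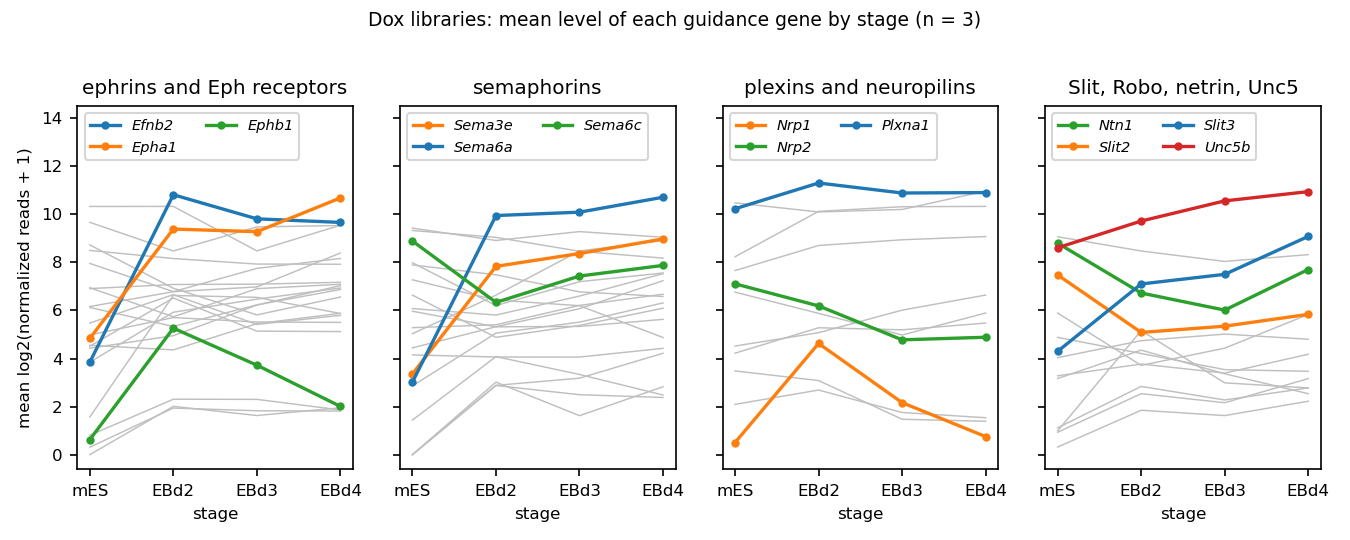
Mean log2(normalized reads + 1) of each of the 67 members over the 3 Dox libraries of a stage, by stage and guidance system; coloured lines name a few members and grey lines are the rest. Efnb2 and Sema6a climb from under 20 normalized reads in mES to about the top of their panels in EBd2, while Nrp1 and Ephb1 peak on day 2.

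Compared per kilobase of exon, so that genes of different length can be set beside each other, the order of the members changed with stage. In mES Dox, Epha2 led with 274 ± 6.5 normalized reads per kb (SD, n = 3), followed by Plxnb2 with 184 ± 2.4 and Ephb4 with 175 ± 3.8, each apart from the next by more than 1 SD. In EBd2 Dox, Plxna1 (279 ± 4.8) and Epha2 (275 ± 10.1) did not differ beyond their spread, and Efnb2 had 262 ± 6.9. Unc5b led in EBd3 Dox with 241 ± 12.3, ahead of Plxna1 with 209 ± 8.6. In EBd4 Dox, Epha1 had 419 ± 45.6 and Unc5b 315 ± 19.8 per kb. Means under 1 normalized read were found for 9 members in mES Dox (Epha3, Epha5, Epha6, Ephb1, Nrp1, Robo2, Sema3a, Sema3d and Sema6d) and for none in the Dox embryoid bodies.

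The second comparison asks what IAA, the agent that triggers loss of the tagged BRD2 protein, did to these genes at each stage; the protein itself was not measured here. With IAA, 28 of 58 tested members changed in mES, 8 upward and 20 downward (48.3%). Naive and formative pluripotency markers changed with IAA in the same mES libraries, in opposite directions by summed level, and are given with the other marker lists further on. Of all genes tested 37.5% changed (17.3% higher, 20.1% lower), but 48.2% of protein-coding genes did, a share close to the share of members. In EBd2, 23 of 67 changed, 11 upward and 12 downward, beside 30.1% of all genes (13.4% higher, 16.7% lower). The EBd2 share of protein-coding genes, given with the other guidance lists further on, was above that of the members. In EBd3, 12 changed, 4 upward and 8 downward (17.9%), beside 10.5% of all genes (4.22% higher, 6.32% lower). There the share of protein-coding genes lay between those of all genes and of members. In EBd4, 11 changed, 1 upward and 10 downward (16.4%), beside 10.3% of all genes (4.69% higher, 5.57% lower) and 13.5% of protein-coding genes. Median log2 fold changes were -0.24, -0.02, -0.06 and -0.18 from mES to EBd4, beside -0.01, -0.04, -0.01 and -0.01 over all genes. Altogether 42 members changed in at least 1 stage, 11 of them upward in one and downward in another, and none in the same direction in all 4 stages. The map of fold changes shows the 6 members that were lower in 3 stages: Epha1, Epha2, Robo1, Sema3e, Sema6a and Slit3.

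**Figure D2:**
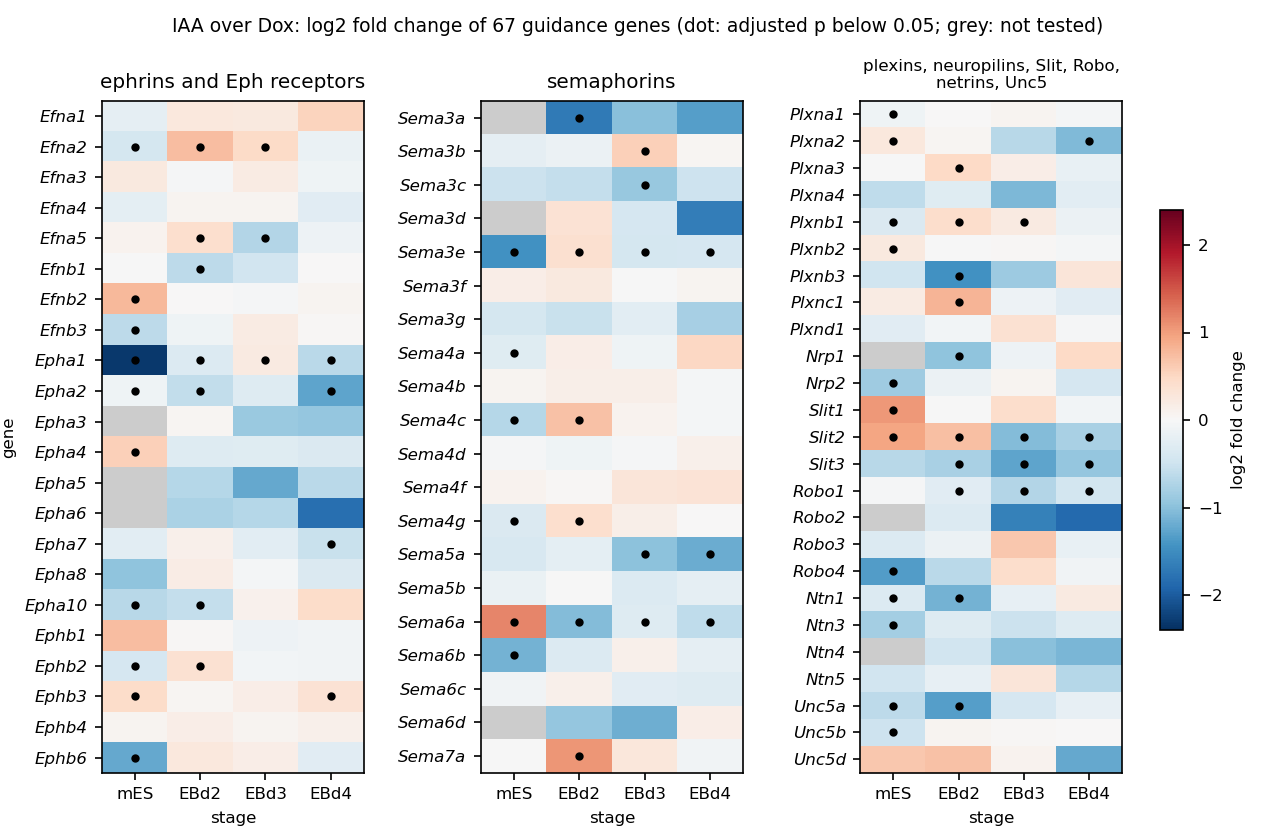
Log2 fold change of IAA over Dox for the 67 members (rows, grouped by guidance system) in the 4 stages (columns), from blue (lower with IAA) to red (higher). Dots mark an adjusted p below 0.05 by limma and grey cells were not tested; mES has 28 dots, EBd2 23, EBd3 12 and EBd4 11.

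Among the ephrins, IAA moved Efna2 in both directions and left the highly expressed Efnb2 of the embryoid bodies without a call. Efna2, a lipid-anchored ligand of EphA receptors, fell in mES from 115, 118 and 134 to 92.8, 90.7 and 88.8 (-0.42 ± 0.10, adjusted p = 0.00105). It rose in EBd2 from 38.6, 56.7 and 65.3 to 98.0, 81.2 and 87.5 (0.75 ± 0.17, adjusted p = 0.00162), and in EBd3 from 113 to 127 up to 130 to 203 (0.46 ± 0.13, adjusted p = 0.0255). The EBd3 call was lost without Dox 1, Dox 2, IAA 1 or IAA 2 (adjusted p = 0.107 to 0.185). Efnb1 fell in EBd2 from 101, 90.7 and 81.1 to 60.0, 49.6 and 66.95 (-0.62 ± 0.14, adjusted p = 0.00216). Efna5 fell in EBd3 from 89.0, 76.6 and 98.7 to 51.6, 58.4 and 49.9 (-0.71 ± 0.16, adjusted p = 0.00394); its rise in EBd2 (0.41 ± 0.15, adjusted p = 0.0437) was lost without any 1 library other than Dox 3 (adjusted p = 0.0702 to 0.229). In mES, Efnb2 rose from 12.1 to 16.3 up to 18.1 to 28.2 (0.78 ± 0.26, adjusted p = 0.0134), a call lost without IAA 1 or IAA 2 (adjusted p = 0.0572 to 0.0798), and Efnb3 fell (-0.63 ± 0.14, adjusted p = 0.000535). In the embryoid bodies Efnb2 held 1719 to 1924 with IAA on day 2, beside 1766 to 1852 without, and its libraries overlapped.

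Of the Eph receptors, Epha1 had the largest fall of any member in mES. It was at 20.8, 27.8 and 36.2 with Dox and at 3.9, 3.5 and 7.5 with IAA (-2.32 ± 0.32, adjusted p = 1.26e-07), and no library overlapped. In EBd2 it was 653 to 694 against 505 to 555 (-0.32 ± 0.06, adjusted p = 0.000418). In EBd3 the direction was the opposite, 588 to 651 against 711 to 728 (0.22 ± 0.06, adjusted p = 0.0199), a call lost without Dox 1, Dox 2, IAA 1 or IAA 2 (adjusted p = 0.051 to 0.124). In EBd4 it was 1775, 1722 and 1441 with Dox and 829, 968 and 1403 with IAA (-0.66 ± 0.14, adjusted p = 0.00669), lost without Dox 1, Dox 2, IAA 1 or IAA 2 (adjusted p = 0.0532 to 0.0871). An antisense neighbour, Zyx, overlaps 6.01% of the exonic bases of Epha1, and whether reads were counted by strand is not given in the sources used here.

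Epha2, a receptor of epithelial and pluripotent cells, fell in EBd2 from 1282, 1238 and 1333 to 860, 865 and 831 (-0.59 ± 0.05, adjusted p = 3.15e-08), with narrow and separate groups. In EBd4 it was 912, 785 and 582 with Dox and 181, 302 and 546 with IAA (-1.26 ± 0.27, adjusted p = 0.00739). The highest IAA library lay just under the lowest Dox library, and the call was lost without Dox 1, Dox 2 or IAA 2 (adjusted p = 0.0566 to 0.0968). The small fall in mES (-0.11 ± 0.04, adjusted p = 0.0163) was lost without Dox 3 or IAA 1 (adjusted p = 0.074 to 0.109). Epha4 rose in mES from 449, 383 and 437 to 596, 639 and 646 (0.57 ± 0.05, adjusted p = 5.37e-11). Epha7 fell in EBd4 from 367, 311 and 327 to 218, 229 and 247 (-0.53 ± 0.09, adjusted p = 0.00208), a call that held without any 1 library.

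Ephb3 rose in mES from 368, 361 and 351 to 465, 503 and 500 (0.44 ± 0.05, adjusted p = 1.5e-08). It was also the only member higher with IAA in EBd4, at 220 to 264 against 291 to 321 (0.35 ± 0.09, adjusted p = 0.023), a call lost without Dox 1, Dox 3, IAA 1 or IAA 2 (adjusted p = 0.0563 to 0.122). Ephb6 fell in mES from 19.9, 23.5 and 18.6 to 6.8, 13.2 and 6.0 (-1.23 ± 0.30, adjusted p = 0.00106). Ephb2 fell in mES (-0.41 ± 0.08, adjusted p = 7.65e-05) and rose in EBd2 (0.37 ± 0.11, adjusted p = 0.0107), where the call was lost without IAA 1 (adjusted p = 0.0577). Epha10, whose product lacks an active kinase, was lower in mES and EBd2, with both calls dependent on single libraries (in EBd2, adjusted p = 0.0503 without Dox 3 and 0.107 without IAA 1; in mES, adjusted p = 0.059 to 0.302 without any 1 library other than IAA 2). Over the family, 7 of 11 tested Eph receptors changed in mES (2 higher, 5 lower), 4 of 14 in EBd2 (1 and 3), 1 of 14 in EBd3 and 4 of 14 in EBd4 (1 and 3). Of all genes tested 37.5%, 30.1%, 10.5% and 10.3% changed in these stages.

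Of the semaphorins, Sema6a changed in every stage, and in mES its direction was the opposite of that in the embryoid bodies. In mES it was 8.2, 5.2 and 8.4 with Dox and 19.5, 13.2 and 19.6 with IAA (1.17 ± 0.31, adjusted p = 0.00257). In EBd2 it fell from 993, 916 and 1054 to 502, 472 and 463 (-1.04 ± 0.06, adjusted p = 1.92e-10). The EBd3 values were 1112, 1072 and 1078 against 857, 912 and 849 (-0.32 ± 0.05, adjusted p = 0.000195). In EBd4 they were 1840, 1653 and 1536 against 895, 1124 and 1300 (-0.61 ± 0.10, adjusted p = 0.00181). No library overlapped between the groups in any stage, and each call held without any 1 library. The EBd3 call was lost in 1 fit of all 24 libraries (adjusted p = 0.108), and the EBd4 call when genes were filtered on a mean of at least 1 over all 24 libraries (adjusted p = 0.0706).

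Sema3e changed in every stage as well. It fell in mES (9.97, 12.2 and 6.5 against 4.9, 1.8 and 2.3, -1.45 ± 0.41, adjusted p = 0.00471), rose in EBd2 (218, 213 and 253 against 313, 295 and 284, 0.39 ± 0.08, adjusted p = 0.00125) and fell in EBd3 (334, 300 and 357 against 227, 232 and 280, -0.42 ± 0.09, adjusted p = 0.00318). In EBd4 the values were 512, 542 and 456 against 399, 392 and 346 (-0.41 ± 0.08, adjusted p = 0.00645), and that call was lost without Dox 1 or Dox 2 (adjusted p = 0.057 to 0.0665). Sema5a, a transmembrane semaphorin with thrombospondin repeats, fell in EBd3 from 66.5, 56.4 and 77.5 to 41.3, 27.3 and 31.8 (-0.98 ± 0.20, adjusted p = 0.00153). It fell further in EBd4, from 167, 157 and 128 to 52.1, 66.0 and 80.1 (-1.19 ± 0.16, adjusted p = 0.000579), and both calls held without any 1 library. Sema3c, secreted, was 41.6 to 46.8 against 14.9 to 31.0 in EBd3 (-0.90 ± 0.25, adjusted p = 0.0182), a call lost without any Dox library or IAA 2 (adjusted p = 0.0639 to 0.111). Sema3b was 35.1 to 45.6 against 57.3 to 63.4 in EBd3 (0.56 ± 0.18, adjusted p = 0.0482), lost when any 1 library was left out (adjusted p = 0.0553 to 0.204).

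Sema6b fell in mES from 39.9, 31.3 and 43.7 to 16.6, 16.7 and 16.6 (-1.14 ± 0.21, adjusted p = 3.28e-05). Sema4c was 39.0, 22.6 and 36.2 against 18.6, 22.0 and 18.1 in mES (-0.68 ± 0.23, adjusted p = 0.0154), lost without Dox 1, Dox 3 or IAA 3 (adjusted p = 0.0516 to 0.116), and rose in EBd2 from 90.6, 86.0 and 123 to 150, 146 and 192 (0.71 ± 0.13, adjusted p = 0.00034). Sema7a, anchored by a lipid, and its receptor gene Plxnc1 both rose in EBd2. Sema7a went from 15.9, 19.8 and 12.2 to 33.6, 33.4 and 34.5 (1.06 ± 0.23, adjusted p = 0.00134), and Plxnc1 from 36.9, 37.8 and 38.8 to 71.5, 65.9 and 65.6 (0.82 ± 0.15, adjusted p = 0.000267). Neither was called in another stage. Sema3a, at 5.7 to 9.3 against 0.9 to 2.0, also fell in EBd2 (-1.69 ± 0.43, adjusted p = 0.00473). Of the 20 semaphorins, 6 of 17 tested changed in mES (1 higher, 5 lower), 6 in EBd2 (4 higher, 2 lower), 5 in EBd3 (1 higher, 4 lower) and 3 in EBd4 (all lower). The shares of all genes tested that changed were 37.5%, 30.1%, 10.5% and 10.3%.

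Plexins are the signalling receptors of semaphorins, and 4 of 9 changed in mES, 4 in EBd2, 1 in EBd3 and 1 in EBd4. Beside them, 37.5%, 30.1%, 10.5% and 10.3% of all genes tested changed. Plxnb1, a receptor of Sema4d, fell in mES from 290, 307 and 304 to 242, 233 and 228 (-0.36 ± 0.07, adjusted p = 2.49e-05) and rose in EBd2 from 1068, 1049 and 1231 to 1531, 1443 and 1474 (0.41 ± 0.06, adjusted p = 1.67e-05). In EBd3 it was 1213 to 1313 against 1426 to 1554 (0.21 ± 0.05, adjusted p = 0.00798), lost without Dox 1 or IAA 1 (adjusted p = 0.0794 to 0.0897). Plxna3 rose in EBd2 from 424, 400 and 422 to 609, 560 and 562 (0.47 ± 0.06, adjusted p = 8.88e-06). Plxna2, a receptor of Sema6a, was 67.5, 58.6 and 50.4 against 19.9, 31.3 and 33.8 in EBd4 (-1.05 ± 0.23, adjusted p = 0.00959), a call lost without Dox 1 or Dox 2 (adjusted p = 0.0645 to 0.0834). Plxnb2 rose in mES from 1442, 1405 and 1420 to 1651, 1681 and 1707 (0.24 ± 0.03, adjusted p = 1.22e-07). Of the neuropilins, Nrp2 fell in mES from 145, 118 and 150 to 84.0, 68.7 and 73.8 (-0.85 ± 0.11, adjusted p = 5.88e-08), and Nrp1 fell in EBd2 from 22.6, 26.5 and 22.2 to 11.5, 11.7 and 11.9 (-0.96 ± 0.25, adjusted p = 0.00542).

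Slit2 rose with IAA in mES and EBd2 and was lower on the later days. In mES it went from 190, 176 and 165 to 320, 334 and 380 (0.95 ± 0.07, adjusted p = 1.52e-13), and in EBd2 from 25.2, 38.8 and 36.6 to 61.8, 56.8 and 47.1 (0.72 ± 0.19, adjusted p = 0.00601). In EBd3 the values were 40.4, 41.5 and 37.1 against 16.8, 9.9 and 39.3 (-1.03 ± 0.32, adjusted p = 0.035), with 1 IAA library inside the Dox range. In EBd4 they were 61.1, 54.8 and 52.9 against 26.5, 40.3 and 31.6 (-0.78 ± 0.21, adjusted p = 0.0255). The EBd3 call was lost without any 1 library other than IAA 3 (adjusted p = 0.0908 to 0.213), and the EBd4 call without any other than IAA 2 (adjusted p = 0.0511 to 0.124). Slit1 rose in mES from 7.2, 6.9 and 13.01 to 17.6, 18.5 and 21.1 (1.04 ± 0.30, adjusted p = 0.00445).

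Slit3 was lower with IAA on all 3 days of embryoid body culture, and these calls held without any 1 library. The EBd4 call was lost when genes were filtered over all 24 libraries (adjusted p = 0.059). Slit3 fell from 133, 132 and 144 to 87.4, 61.3 and 90.8 in EBd2 (-0.78 ± 0.13, adjusted p = 0.000131), from 180, 181 and 179 to 80.0, 68.3 and 74.3 in EBd3 (-1.27 ± 0.12, adjusted p = 6.46e-08) and from 564, 556 and 502 to 203, 323 and 342 in EBd4 (-0.94 ± 0.14, adjusted p = 0.00109). In mES its values of 16.3, 16.5 and 24.2 against 15.6, 10.6 and 9.0 were not called. Robo1, the main receptor of Slit proteins, was 349, 330 and 386 against 309, 272 and 301 in EBd2 (-0.27 ± 0.08, adjusted p = 0.0119), a call lost without IAA 2 (adjusted p = 0.0817). It fell in EBd3 from 256, 261 and 268 to 164, 137 and 187 (-0.70 ± 0.11, adjusted p = 5e-05) and in EBd4 from 325, 326 and 306 to 232, 245 and 228 (-0.44 ± 0.08, adjusted p = 0.00373). In mES Robo1 was 500 to 574 against 491 to 562, with overlapping libraries. Robo4, an endothelial Robo gene at 4.5 to 13.03 against 1.8 to 3.9 in mES (-1.35 ± 0.43, adjusted p = 0.0122), lost its call without Dox 2 (adjusted p = 0.125). Robo2 was listed at 0 in all 3 IAA libraries of EBd3, beside 1.1 to 3.6 with Dox, and was not called.

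Of the netrin and Unc5 genes, 4 of 6 tested fell in mES and 2 of 7 in EBd2, beside 20.1% and 16.7% of all genes tested. No netrin or Unc5 member passed the test in EBd3 or EBd4, where 10.5% and 10.3% of all genes changed. So few genes give no result for the family. Ntn1 fell in mES from 439, 465 and 428 to 359, 342 and 356 (-0.33 ± 0.06, adjusted p = 5.08e-06) and in EBd2 from 103, 102 and 109 to 43.3, 52.3 and 45.7 (-1.14 ± 0.13, adjusted p = 1.45e-06). In EBd4 it was 190, 218 and 215 against 211, 260 and 258, with overlapping libraries and no call. Unc5a fell in mES from 66.1, 54.7 and 54.8 to 37.1, 37.0 and 37.6 (-0.63 ± 0.16, adjusted p = 0.00115) and in EBd2 from 13.4, 14.2 and 9.3 to 6.2, 3.6 and 3.3 (-1.33 ± 0.36, adjusted p = 0.00735). Unc5b fell in mES from 397, 397 and 374 to 276, 254 and 297 (-0.50 ± 0.06, adjusted p = 2.29e-08) and was not called in the embryoid bodies. Ntn3 was 16.3, 19.98 and 11.2 against 8.8, 8.8 and 7.5 in mES (-0.81 ± 0.31, adjusted p = 0.0342), a call lost without Dox 1, Dox 2, IAA 2 or IAA 3 (adjusted p = 0.0505 to 0.182).

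**Figure D3:**
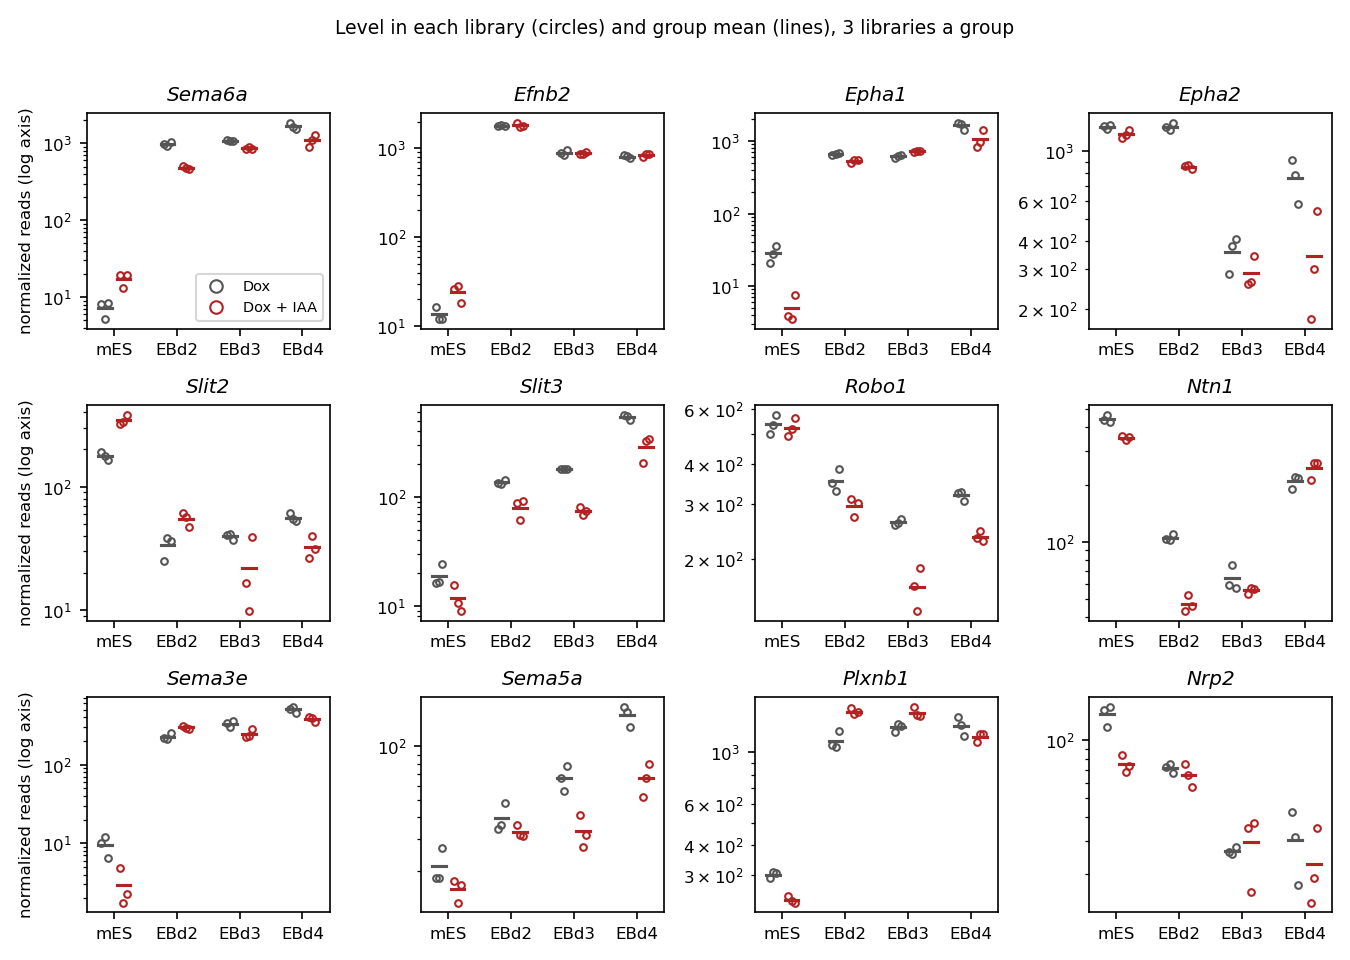
Normalized reads (log axis) of 12 members in each library, by stage; grey circles are Dox and red circles Dox with IAA, and lines are means of 3 libraries. Slit3 is lower with IAA on days 2, 3 and 4, Slit2 is higher in mES and EBd2 alone, and the EBd4 circles of Epha1 and Epha2 are spread widely.

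Counts of calls in EBd3 and EBd4 rested on single libraries. In EBd3, 12 calls became 7 without Dox 1, Dox 2, IAA 1 or IAA 2, and in EBd4, 11 became 5 without Dox 1 and 6 without Dox 2. Without EBd2 Dox 3, the library that stood apart, 25 members were called in EBd2 (13 higher, 12 lower). Without EBd4 IAA 1, 8 were called in EBd4, all lower. Of the calls that no left-out library ended, 10 were lost under another setting, among them those given above for Sema6a and Slit3. In 1 fit of all 24 libraries these were Sema4a (adjusted p = 0.19) and Unc5a (0.112) in mES, Sema3e (0.116), Epha1 (0.165), Nrp1 (0.23) and Efnb1 (0.0543) in EBd2 and Sema3e in EBd3 (0.138). Sema3e in EBd3 was also lost with the filter over 24 libraries (adjusted p = 0.0549), and Sema4a in mES with DESeq2 (adjusted p = 0.085).

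In EBd4, markers of the primitive streak and mesoderm moved together with these genes. Of 11 tested markers 4 fell (Eomes, Fgf8, Gsc and Wnt3) and none rose, with a median of -1.74. The summed level of all 12 was 2469, 2298 and 1317 in Dox 1, 2 and 3, and 197, 508 and 1547 in IAA 1, 2 and 3. Epha2, Epha1, Sema6a, Slit3, Sema5a and Plxna2 had the same order of libraries within each group. They were highest in Dox 1 and lowest in Dox 3, and lowest in IAA 1 and highest in IAA 3. Epha7, Robo1, Sema3e and Slit2, also lower in EBd4, did not have this order. In bulk samples fewer cells of a type and less RNA per cell cannot be told apart, and the part of these cells in the EBd4 results was not tested.

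Summed levels of other marker lists also differed with IAA, and the sums that did not overlap between Dox and IAA libraries are given here for each stage. A sum can rest on a few abundant genes, which was not examined where no counts of calls stand beside it. The share of all genes without overlap is not given, but 37.5%, 30.1%, 10.5% and 10.3% were called from mES to EBd4. In mES, naive pluripotency markers were higher (9 of 12 rose and 1 fell, summed level 48055 to 50277 against 56880 to 58574) and formative epiblast markers lower in sum (2 of 9 tested rose and 4 fell, 2542 to 2739 against 1305 to 1447). Fibroblast and feeder markers stood at 65.2 to 73.4 against 21.1 to 47.6 in mES, with Col3a1, Dcn, Lum and Postn at 0 in all 6 libraries. The mES sums of endothelium and blood (1868 to 1997 against 2146 to 2300), primitive endoderm (7017 to 7178 against 7401 to 7631) and neural crest (372 to 382 against 383 to 468) were higher with IAA. In EBd2 the naive and formative lists had the opposite direction. Naive markers were lower (7 of 12 fell, none rose, 3081 to 3610 against 2304 to 2516) and formative markers higher (7 of 10 rose and 1 fell, 37038 to 37719 against 48012 to 49546).

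Endothelium and blood markers fell in EBd2 (6 of 10, none higher, 950 to 1198 against 638 to 687), and neuroectoderm markers rose (7 of 13 tested higher and 1 lower, 3459 to 4056 against 5468 to 5932). Among the Dox groups the endothelium and blood sum was highest in mES (1868 to 1997, with Cdh5 at 0 in all 3 libraries) and 369 to 501 in EBd4. A change of that sum therefore does not by itself show a change in endothelial or blood cells. Sums were also lower in EBd2 for the primitive streak and mesoderm (1 of 11 fell, 251 to 299 against 161 to 198) and for fibroblasts (3 of 7 tested fell, 227 to 290 against 161 to 168). Neural crest markers summed to 755 to 824 against 897 to 971, with 1 of 7 called each way. In EBd3 the sums were lower for naive (3571 to 4069 against 3060 to 3525), formative (39797 to 41853 against 37618 to 39674), streak (183 to 189 against 130 to 146), neural crest (566 to 600.3 against 472 to 542) and endothelium and blood (461 to 487 against 373 to 426) markers. The neuroectoderm sum was higher in EBd3 (5903 to 5914 against 6051 to 6432). In EBd4 the formative (25687 to 27265 against 24256 to 25105) and neural crest (685 to 701 against 507 to 612) sums were lower, and the primitive endoderm sum was higher (5469 to 5565 against 5710 to 6127). The part of these cell states and types in the results of the 4 stages, Nrp1 and Efnb1 included, was not tested.

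Whether the IAA effect differed among stages was tested itself, in a fit of all 24 libraries. It differed for 27 of 67 members (40.3%), beside 28.2% of all genes and 36.7% of protein-coding genes. The smallest adjusted p-values were those of Sema6a (1.94e-10), Epha1 (3.85e-09), Plxnb1 (7.97e-08), Ntn1 (2.45e-07) and Plxna3 (9.14e-06). Against mES, the effect in EBd2 differed for 19 members (16.3% of all genes), that in EBd3 for 18 (11.7%) and that in EBd4 for 18 (16.8%). For Sema6a the EBd2 effect was lower than the mES effect by 2.21 ± 0.18 on the log2 scale (adjusted p = 5.73e-11). For Epha1 it was higher by 2.00 ± 0.24 (adjusted p = 1.16e-07), since the fall in mES was much the larger. Plxnb1 changed from lower to higher, with a difference of 0.77 ± 0.09 (adjusted p = 4.82e-08), and Ntn1 fell more in EBd2 than in mES, with a difference of -0.81 ± 0.15 (adjusted p = 0.000201). These differences share the mES libraries.

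Guidance genes are long. By genomic span, from the first to the last annotated base, 30 of 67 members reach 100 kb (44.8%), beside 10.3% of genes with a mean of at least 1 and 13.8% of protein-coding ones. In EBd3 all 8 members that fell span over 100 kb, from Sema6a with 133 kb to Robo1 with 738 kb, and the 4 that rose span 10.5 to 24.5 kb. Each of the 4 rises, and the falls of Sema3c and Slit2, lost its call when certain single libraries were left out. Without EBd3 Dox 1 or EBd3 IAA 1, 7 members were called in EBd3, all lower. In EBd4, 8 of the 10 that fell span over 100 kb, and the other two are Epha1 (14.8 kb) and Epha2 (28.1 kb). The median change of the 30 long members was -0.54 in EBd3 and -0.47 in EBd4, beside 0.12 and -0.05 for the 37 shorter ones. Of 2244 tested genes of at least 100 kb in EBd3, 634 fell and 32 rose (median -0.26), and in EBd4 360 of 2196 fell and 83 rose (median -0.14). The share of long members called was 26.7% in EBd3 and 26.7% in EBd4, beside 29.7% and 20.2% of long genes. In mES the long members did not share that direction, with 5 higher and 4 lower of 21 tested (42.9%), while 628 of 1994 long genes fell and 325 rose (47.8%). In EBd2, 5 of 30 long members rose and 6 fell (36.7%), beside 297 and 590 of 2287 long genes (38.8%).

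**Figure D4:**
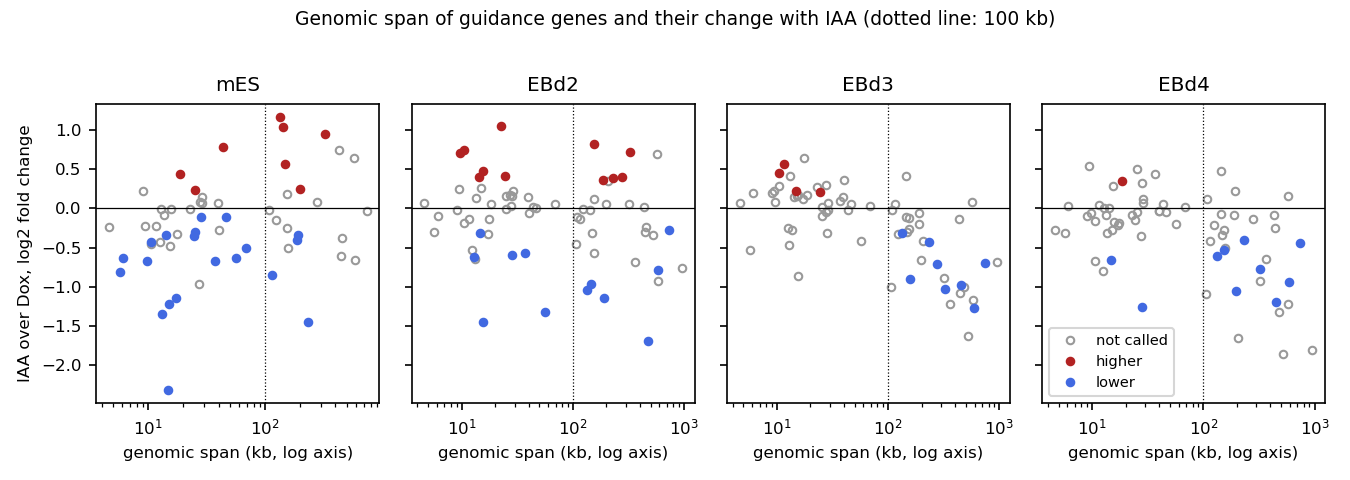
Log2 fold change of IAA over Dox against genomic span (log axis) of the tested members in each stage; red and blue points passed the test upward and downward, open grey points did not, and the dotted line marks 100 kb. In EBd3 all 8 blue points lie right of the line and all 4 red points left of it, whereas in mES both colours occur on both sides. Each of the 4 red points of EBd3 lost its call when certain single libraries were left out.

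On mm10 (GENCODE M21), Robo1 lies at chr16:72308306-73046095 on the plus strand, Slit3 at chr11:35121224-35708507 (plus), Sema5a at chr15:32244810-32696341 (plus), Slit2 at chr5:47983138-48307733 (plus) and Ntn1 at chr11:68209364-68400823 (minus). Exons of 17 members overlap another gene, and only in Ntn5 is more than 20% of the exonic length shared (23.4%, with Sec1).

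Other guidance molecules outside the 67 were followed as 2 lists. Of further ligands and receptors, 6 rose and 8 fell of 31 tested in mES, 8 rose and 12 fell of 35 in EBd2, 3 rose and 5 fell of 34 in EBd3, while 4 rose and 6 fell of 33 in EBd4. The shares called were 45.2%, 57.1%, 23.5% and 30.3% from mES to EBd4, beside 37.5%, 30.1%, 10.5% and 10.3% of all genes and 48.2%, 37.1%, 13.8% and 13.5% of protein-coding genes. Nrcam, a neural adhesion molecule that pairs with neuropilins, fell in the 3 embryoid body stages, from 124 to 19.4 in EBd2 (-2.62 ± 0.16, adjusted p = 2.2e-10), 56.0 to 9.71 in EBd3 (-2.56, adjusted p = 5.2e-06) and 356 to 94.5 in EBd4 (-2.07, adjusted p = 0.00074). Cxcl12, a chemokine that guides migrating cells, rose in the same stages, from 392 to 794 in EBd2 (1.02, adjusted p = 2.9e-10) and from 917 to 1112 in EBd4 (0.28, adjusted p = 0.0217). Ptprd, a receptor phosphatase, fell in EBd3 (-1.59, adjusted p = 0.00045) and EBd4 (-1.59, adjusted p = 0.00618). In mES, Flrt2 rose from 69.5 to 132 (0.91, adjusted p = 1.55e-08) and Met fell from 52.0 to 30.1 (-0.78, adjusted p = 0.000384).

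The cytoplasmic list holds the proteins that pass guidance signals to the cytoskeleton. Of its 61 genes, 17 rose and 21 fell in mES. In EBd2 18 rose and 13 fell, in EBd3 the numbers were 6 and 14, and in EBd4 5 genes went each way. These are shares of 62.3%, 50.8%, 32.8% and 16.4%, beside the same shares of all and of protein-coding genes. Crmp1, a collapsin response mediator protein downstream of semaphorins, fell in mES from 162 to 26.5 (-2.57, adjusted p = 1.15e-18). Myl9, a myosin light chain, fell in EBd2 from 398 to 153 (-1.38 ± 0.08, adjusted p = 1.36e-10), as did Srgap2, a Slit and Robo effector (1042 to 671, -0.63 ± 0.06, adjusted p = 4.12e-08). Dock1, a Rac activator used by netrin receptors, fell in EBd3 from 657 to 372 (-0.82, adjusted p = 1.08e-07) and in EBd4 from 1028 to 666 (-0.62, adjusted p = 0.000104). The largest rises named by the same rule were those of Trio in mES and Rnd1 in EBd2. Trio went from 136 to 291 (1.10, adjusted p = 1.17e-13) and Rnd1 from 29.4 to 47.9 (0.75, adjusted p = 0.0171). In EBd3 it was Bcar1 (1403 to 1620, 0.21, adjusted p = 0.00455). In EBd4 it was Sdc4 (286 to 447, 0.64, adjusted p = 0.000134), which had fallen in EBd2 (-0.74, adjusted p = 1.07e-07).

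The authors' deposited table, in which each member marked as changed has a deposited log2 fold change beyond 1 in size, marks 2 members up and 5 down in mES, 1 up and 3 down in EBd2, 2 down in EBd3 and 3 down in EBd4. The limma calls had no such limit on the fold, so their 28, 23, 12 and 11 members are not comparable with these counts. Slit2 in mES, for example, is marked unchanged at a deposited log2 fold change of 0.96 (DESeq2 Wald test, adjusted p = 1.38e-08). The share of all genes marked in that table is not given here.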

How the data were processed

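RNA-seq libraries were those of 24 samples in 8 groups of 3, as the labels give them. The deposited tables hold a signal per gene: reads divided by a DESeq2 size factor, with reads aligned by STAR 2.5.3a to mm10 and counted by featureCounts 1.5.2, per the submitters' processing notes; each value gave a whole read count (relative tolerance 1e-06). The authors' columns of log2 fold change and p-value, deposited with the Wald score of DESeq2, were used only to give their calls. Strandedness is not given in the sources used here.

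Levels were fitted as log2(level + 1) with limma 3.58.1 (trend, R 4.3.3), 1 fit per stage for IAA over Dox, 1 for the Dox libraries and 1 over all 24 libraries for differences among stages. Genes with a mean of at least 1 over the libraries fitted were tested, with Benjamini-Hochberg adjustment over all of them and a threshold of 0.05. Spans and overlaps came from GENCODE M21 (35652 of 35742 genes matched). Alternatives were edgeR 4.0.16 and DESeq2 1.42.0 on the recovered reads, other filters and pseudocounts, TMM scaling, a replicate block, 1 fit over all libraries and leaving out each library. Scripts were tested on simulated data.

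Described with values are, for each IAA comparison, up to 6 called members each way (4 for each Dox step) by largest fold change, where libraries did not overlap and the higher group averaged 10 or more, and the 5 with the smallest adjusted p for the difference among stages. Pathway lists name up to 4 genes each way by the same size rule, and other members stand where a family is described. The members, lists and this rule were chosen with earlier results of these data known.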

Additional observations from a re-analysis of the deposited data

Results flagged for a closer look

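The fold change of IAA over Dox differed between an embryoid body stage and mES for the members below, which are all members called, by a test of the difference itself in the limma fit of all 24 libraries. Each value is the log2 fold change of the later stage minus that of mES. A positive value says that the change with IAA was further upward, or less downward, in the later stage than in mES. It does not compare the level of the gene between stages. All of these differences share the mES libraries.

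For EBd2, the difference was positive for Epha1 (2.00), Sema3e (1.84), Ephb6 (1.48), Sema4c (1.39), Efna2 (1.17), Epha8 (1.14), Sema6b (0.82), Ephb2 (0.78), Plxnb1 (0.77), Sema4g (0.74), Unc5b (0.56) and Plxna3 (0.48). It was negative for Sema6a (-2.21), Sema3a (-2.13), Epha4 (-0.88), Ntn1 (-0.81), Efnb2 (-0.77), Ephb3 (-0.38) and Plxnb2 (-0.25). In the limma fit, leaving out 1 library at a time ended some of these calls. The call was lost for Epha4 without mES Dox 1, mES Dox 2, mES Dox 3, mES IAA 1, mES IAA 2, mES IAA 3, EBd2 Dox 1, EBd2 Dox 2, EBd2 IAA 1, EBd2 IAA 2 or EBd2 IAA 3 (adjusted p = 0.051 to 0.123). Epha8 lost it without mES Dox 2, mES Dox 3, mES IAA 2, EBd2 Dox 1 or EBd2 IAA 1 (adjusted p = 0.0527 to 0.0968). Sema3a lost it without mES Dox 1, mES Dox 2, mES Dox 3, mES IAA 3, EBd2 Dox 1, EBd2 Dox 2, EBd2 Dox 3, EBd2 IAA 1, EBd2 IAA 2, EBd2 IAA 3, EBd3 Dox 1, EBd3 Dox 3 or EBd4 Dox 2 (adjusted p = 0.0525 to 0.166). Plxnb2 lost it without EBd2 Dox 3 or EBd2 IAA 2 (adjusted p = 0.0576 to 0.0672). Ephb3 lost it without mES Dox 1, mES Dox 2, mES Dox 3, mES IAA 2, mES IAA 3, EBd2 Dox 1, EBd2 Dox 2 or EBd2 IAA 2 (adjusted p = 0.0516 to 0.114).

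For EBd3, the difference was positive for Epha1 (2.53), Robo4 (1.76), Ephb6 (1.38), Sema6b (1.26), Sema3e (1.03), Efna2 (0.88), Efnb3 (0.82), Sema3b (0.78), Sema4c (0.75), Plxnb1 (0.56), Unc5b (0.53) and Sema4g (0.49). It was negative for Slit2 (-1.99), Sema6a (-1.48), Plxna2 (-0.91), Efnb2 (-0.81), Efna5 (-0.80) and Robo1 (-0.66). In the limma fit, leaving out 1 library at a time ended some of these calls. The call was lost for Sema4c without mES Dox 1 or EBd3 IAA 2 (adjusted p = 0.0531 to 0.0649). Plxna2 lost it without mES Dox 2 or EBd3 Dox 3 (adjusted p = 0.0515 to 0.0608). Robo4 lost it without mES Dox 2, mES IAA 2, mES IAA 3 or EBd3 Dox 3 (adjusted p = 0.0502 to 0.0974). Sema3b lost it without mES Dox 1, mES Dox 3, mES IAA 1, mES IAA 2, mES IAA 3, EBd3 Dox 1, EBd3 Dox 2, EBd3 IAA 1 or EBd3 IAA 2 (adjusted p = 0.0517 to 0.132). Efna5 lost it without mES Dox 1, mES Dox 2, mES IAA 1, mES IAA 2, EBd3 Dox 1, EBd3 Dox 3, EBd3 IAA 1 or EBd3 IAA 3 (adjusted p = 0.0661 to 0.116). Sema4g lost it without mES Dox 2, mES Dox 3, mES IAA 2, mES IAA 3, EBd3 Dox 1 or EBd3 IAA 2 (adjusted p = 0.0592 to 0.109).

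For EBd4, the difference was positive for Epha1 (1.66), Epha10 (1.10), Sema3e (1.04), Ephb6 (0.95), Sema6b (0.92), Sema4a (0.80), Efnb3 (0.66), Sema4c (0.62), Ntn1 (0.56) and Unc5b (0.51). It was negative for Sema6a (-1.78), Slit2 (-1.73), Plxna2 (-1.30), Epha2 (-1.15), Epha4 (-0.91), Efnb2 (-0.73), Robo1 (-0.41) and Plxnb2 (-0.29). In the limma fit, leaving out 1 library at a time ended some of these calls. The call was lost for Sema4c without mES Dox 1, mES Dox 3, mES IAA 1, mES IAA 3, EBd4 Dox 1, EBd4 Dox 3, EBd4 IAA 2 or EBd4 IAA 3 (adjusted p = 0.0501 to 0.139). Epha4 lost it without mES Dox 2, mES IAA 2, mES IAA 3, EBd4 Dox 1, EBd4 IAA 1 or EBd4 IAA 2 (adjusted p = 0.0598 to 0.0928). Sema4a lost it without EBd4 Dox 2 (adjusted p = 0.0529). Epha10 lost it without mES IAA 1, mES IAA 3, EBd4 Dox 2 or EBd4 IAA 2 (adjusted p = 0.0525 to 0.0953). Ephb6 lost it without mES Dox 2, mES IAA 1, mES IAA 3, EBd4 Dox 1, EBd4 Dox 2 or EBd4 IAA 3 (adjusted p = 0.056 to 0.117). Efnb3 lost it without mES Dox 1, mES Dox 2, mES IAA 2, mES IAA 3, EBd4 Dox 2, EBd4 Dox 3, EBd4 IAA 2 or EBd4 IAA 3 (adjusted p = 0.0536 to 0.124). Robo1 lost it without mES Dox 1 or mES IAA 3 (adjusted p = 0.0617 to 0.0639).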

How the results depend on the processing

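No call of the genes named in the comparisons reversed its direction under the alternatives given for the processing. Of members called, EBd3 had 12, with 6 when genes were filtered on a mean of at least 1 over all 24 libraries and 7 with DESeq2; EBd4 had 11, with 4 under that filter. That filter adds genes at 0 in all 6 libraries of a stage to the test (67 in EBd3 and 158 in EBd4). Leaving out 1 library gave 25 to 26 members in mES, 18 to 25 in EBd2, 7 to 13 in EBd3 and 5 to 11 in EBd4, and 53 to 58, 36 to 41 and 27 to 34 for the Dox steps. Over all genes, 2245 calls in EBd3 became 1170 under the filter and 1283 with DESeq2, and ranged from 1202 to 2613 without 1 library; 2173 in EBd4 became 949 under the filter, 1365 with the replicate block and 3425 in 1 fit of all libraries, and ranged from 776 to 2039. Calls of the genes named held in 482 and were lost in 52 fits without 1 library. These fits pool IAA calls with Dox steps, where many left-out libraries belonged to neither stage compared. Among the Dox steps the losses were those of Epha8 (4 fits) and Sema4b (1 fit), and the rest were of IAA calls. Of all members called with IAA, 20 of 28 in mES and 17 of 23 in EBd2 held without any 1 library. In EBd3 6 of 12 held, and in EBd4 5 of 11. For the Dox steps, 50 of 57, 34 of 41 and 23 of 32 held. Under every setting in which the gene was tested, fewer IAA calls held: 18 of 28, 13 of 23, 4 of 12 and 3 of 11 from mES to EBd4. With DESeq2 the mES calls of Sema4c, Plxna2, Sema4a, Epha10, Epha2, Plxna1, Efnb2, Robo4 and Ntn3 were lost. So were those of Epha10, Robo1, Efna5 and Sema4g in EBd2. DESeq2 also ended those of Sema3c, Slit2, Epha1, Sema3b and Efna2 in EBd3, and of Epha2, Slit2 and Epha1 in EBd4.

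Replicate numbers did not pair the samples: deviations of same-numbered Dox and IAA libraries correlated between -0.18 and 0.09. With the replicate block, 28, 23, 12 and 9 members were called from mES to EBd4.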
